A study of Homo sapiens with 6 samples.

Results

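The transcripts of 9 genes of store-operated calcium entry were followed: the calcium sensors STIM1 and STIM2, the channel subunits ORAI1, ORAI2 and ORAI3, and the regulators SARAF, STIMATE, CRACR2A and CRACR2B. Their entries were found by gene name among 16510 gene names that the deposited table lists in 17381 entries, and all 9 names were found. Expression was measured by mRNA sequencing in 6 libraries, all from cells that the labels call Hep3B, a human hepatocellular carcinoma line, with acquired resistance to sorafenib, a kinase inhibitor given in liver cancer. The first group of 3 libraries is labelled STIM1 knockout and the second group of 3 is labelled wildtype and is called control. Both carry the treatment label none, and the label of resistance is shared by all libraries. The labels do not say how the knockout was made, whether it is 1 clone, or whether the libraries of a group came from separate cultures, so every SD and p-value here measures a spread between libraries that may be technical. The genotype field disagrees with the sample titles: over the 3 knockout samples it names STIM1, STIM2 and STIM3 in turn, while the titles and the series text describe a single group, and STIM3 is the name of no entry in the table.

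Store-operated calcium entry refills the endoplasmic reticulum. When the store empties, the luminal EF hand of STIM1 or STIM2 loses its calcium, and the protein gathers at junctions with the plasma membrane, where it binds ORAI subunits and opens the pore. SARAF ends this activation and so limits filling, STIMATE helps STIM1 to reach the junctions, and the CRACR2 proteins are cytosolic EF-hand partners of the STIM1 and ORAI1 complex. STIM1 with ORAI1 is the classical pair, while ORAI3 has been described in tumour cells among others.

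The deposited table holds 1 mean per group. The digits of these means gave back whole reads per library for all 17381 entries. Which library belongs to which sample number is not known, and within a group the letters A, B and C follow the size factor, the highest first. They held 12042705 to 15098349 reads in the group labelled STIM1 knockout and 13854858 to 16398992 reads in control. A normalized read below is a read divided by the size factor of its library. A gene is said to have risen or fallen in the libraries labelled STIM1 knockout only where the adjusted p of the authors' deposited table was under 0.05. For the 6320 gene names with a mean of 100 to 1000, the median coefficient of variation over the 3 libraries was 5.71% in the group labelled STIM1 knockout and 5.65% in control. Sequencing reads carried no molecular identifiers, so these spreads include amplification. The cell label was checked against a list of 14 hepatocyte and hepatoma markers, of which 10 were listed and 2 reached a mean of 10. ALB and AFP, the defining secreted proteins, had 1 read each over the libraries labelled STIM1 knockout and 0 over control, and TF averaged 10.2 normalized reads in the libraries labelled STIM1 knockout and 11.95 in control. HNF4A, a liver transcription factor, averaged 817 in the libraries labelled STIM1 knockout and 219 in control, and made up most of the list's sum of 785 to 905 in the libraries labelled STIM1 knockout and 220 to 274 in control. SERPINA1, which encodes a secreted liver protein, fell to 0 reads over the libraries labelled STIM1 knockout, against 22 over control (authors' deposited adjusted p = 0.00185). Of the 10 listed markers 1 rose (HNF4A) and 1 fell (SERPINA1). The defining markers of the labelled cell type were thus at or near 0 in both groups.

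Of the 9 genes, 5 changed in the authors' deposited table, 1 upwards (STIM1) and 4 downwards (ORAI3, SARAF, STIMATE and ORAI2), and the other 4 did not pass. Over all entries of the table, 54.5% passed, 25.7% as higher and 28.8% as lower in the libraries labelled STIM1 knockout. Changes were thus common in this comparison. A limma test on the recovered libraries could be made for 8 of the 9 genes and called 5 of them, against 69.9% of the 14771 gene names tested. The libraries of the groups did not overlap for 5 of these 8, against 72.4% of the names tested. The median log2 change of the 8 was −0.23 by limma, and that of all names tested was −0.04. In bulk RNA, less transcript in each cell and fewer cells that carry it cannot be told apart.

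Promoter sequences were found in RefSeq (GRCh38.p14) for 6 of the 9 genes, and those of 4 of the 5 genes that changed (ORAI3, STIMATE, ORAI2 and STIM1) are shown, each at the start that the deposited table gives, so that the genes that changed can be compared in sequence. Gene totals do not show which start was used. Each window runs from 250 bases before to 50 bases after the annotated start, 5′ to 3′ on the strand of the gene. Capitals mark every match, on either strand, to any of 9 short motifs that were searched, namely GGGCGG (GC box), CCAAT (bound by NF-Y), TATAAA (core promoter element), CACGTG (E-box), TGACGTCA (cAMP response element), TGANTCA (AP-1), TGGAAA (NFAT core), ACGTG (hypoxia response core) and the NF-kB motif in its short form of 3 G, 5 free bases and 2 C.
ORAI3, chr16:30948818-30949117 (+ strand): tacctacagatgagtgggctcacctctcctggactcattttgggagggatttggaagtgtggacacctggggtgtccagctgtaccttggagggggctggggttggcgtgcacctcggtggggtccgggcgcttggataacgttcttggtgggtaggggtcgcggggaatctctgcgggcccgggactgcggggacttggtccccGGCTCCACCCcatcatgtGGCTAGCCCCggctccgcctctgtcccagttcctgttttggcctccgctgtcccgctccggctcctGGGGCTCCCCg
STIMATE, chr3:52897499-52897798 (− strand): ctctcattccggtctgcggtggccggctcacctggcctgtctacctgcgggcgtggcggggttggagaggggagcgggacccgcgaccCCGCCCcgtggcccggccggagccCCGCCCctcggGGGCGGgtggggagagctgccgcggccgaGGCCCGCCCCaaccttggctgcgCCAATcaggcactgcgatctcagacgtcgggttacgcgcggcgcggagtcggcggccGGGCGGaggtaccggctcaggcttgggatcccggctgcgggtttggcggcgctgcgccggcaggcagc
ORAI2, chr7:102433325-102433624 (+ strand): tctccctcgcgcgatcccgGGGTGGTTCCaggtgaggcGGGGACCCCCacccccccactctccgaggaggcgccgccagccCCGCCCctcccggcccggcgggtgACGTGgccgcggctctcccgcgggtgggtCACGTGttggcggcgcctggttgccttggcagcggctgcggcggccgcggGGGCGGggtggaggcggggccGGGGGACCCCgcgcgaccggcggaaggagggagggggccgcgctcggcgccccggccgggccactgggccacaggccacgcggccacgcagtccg
STIM1, chr11:3854354-3854653 (+ strand): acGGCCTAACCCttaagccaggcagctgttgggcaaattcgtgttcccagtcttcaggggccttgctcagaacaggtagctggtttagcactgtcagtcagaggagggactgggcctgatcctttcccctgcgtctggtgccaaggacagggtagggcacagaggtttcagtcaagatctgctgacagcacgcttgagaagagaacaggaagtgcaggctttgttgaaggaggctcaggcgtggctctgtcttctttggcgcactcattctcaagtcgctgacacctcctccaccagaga

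The 4 windows differed in composition. GC content was 65.7% for ORAI3, 76.7% for STIMATE, 81.7% for ORAI2 and 55.7% for STIM1, against a median of 58.7% over 35116 promoters of the same length. CpG pairs numbered 17 in ORAI3, 40 in STIMATE, 43 in ORAI2 and 7 in STIM1. The STIM1 window is the one at the start that the deposited table gives, and RefSeq has 3 more STIM1 windows, 559 to 1099 bases downstream, with a GC content of 69.0% to 80.0%. The ORAI3 window held 3 matches to the NF-kB motif, which is found in 58.7% of all promoters, and none to the other 8 motifs. STIMATE had 5 matches to the GC box and 1 match each to CCAAT and the NF-kB motif, while 45.0% of all promoters hold the GC box and 34.6% hold CCAAT. ORAI2 had 2 GC boxes, 3 matches to the NF-kB motif, 1 E-box and 3 matches to ACGTG, of which 2 are the 2 strands of that E-box. The E-box occurs in 7.26% and ACGTG in 21.4% of all promoters. The STIM1 window shown held 1 match to the NF-kB motif only, which depends on the start used. In order of position, the 3 other STIM1 windows held 2, 8 and 9 matches to the GC box. They held 4, 6 and 7 matches to the NF-kB motif, and the first of the 3 held 1 match to CCAAT. The later windows overlap and share matches. TATAAA (11.5% of all promoters), TGACGTCA (1.85%), TGANTCA (7.71%) and the NFAT core TGGAAA (20.7%) were found in none of the 4 windows shown. A GC box can overlap the NF-kB motif, as it does once in STIMATE. Matches describe the letters of these windows and say nothing of the factors.

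STIM1, the sensor named in the knockout label, was higher and not lower in the libraries that carry this label. The gene lies on chromosome 11 (3854604 to 4093210, plus strand, GRCh38). It had 1454, 1439 and 1422 normalized reads in libraries A, B and C labelled STIM1 knockout, against 1047, 972 and 836 in control libraries A, B and C. All libraries labelled STIM1 knockout stood above all control libraries, and the coefficient of variation was 1.12% in the group labelled STIM1 knockout and 11.2% in control. The means were 1438 ± 16.1 in the libraries labelled STIM1 knockout and 951 ± 107 in control (SD, n = 3 each), a ratio of 1.51. STIM1 thus rose by 0.60 on the log2 scale in the authors' deposited table (adjusted p = 4.33e-14), and limma gave 0.60 (SE 0.06, 95% interval 0.46 to 0.74, adjusted p = 8.85e-07). A higher log2 change was listed for 21.6% of all entries, which include those with few reads or with 0 reads in a group. The count is taken over the whole gene, so it gives neither the edited exon nor the protein, and it cannot serve as a check of the edit. Directions below are therefore those of libraries labelled STIM1 knockout.

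STIM2, the paralog with a higher sensitivity to partial store loss, was not called. Libraries A, B and C labelled STIM1 knockout had 273, 269 and 283 normalized reads, against 323, 302 and 278 in control libraries A, B and C. The groups overlapped, since library C labelled STIM1 knockout exceeded control library C, and no library labelled STIM1 knockout stood apart from the others for STIM2. The means were 275 ± 7.31 in the libraries labelled STIM1 knockout and 301 ± 22.7 in control (SD, n = 3 each). The limma log2 difference was −0.13 with a 95% interval of −0.31 to 0.05 (adjusted p = 0.193), and the authors' deposited table gave an adjusted p of 0.322.

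ORAI3, the pore subunit found in mammals only, showed the largest fold difference of the 8 genes that could be tested. Its gene lies on chromosome 16 (30949068 to 30954938, plus strand). Libraries A, B and C labelled STIM1 knockout had 138, 134 and 118 normalized reads, against 421, 426 and 464 in control libraries A, B and C. The lowest control library held more than any library labelled STIM1 knockout by a wide margin. ORAI3 fell to 130 ± 10.8 in the libraries labelled STIM1 knockout, against 437 ± 23.7 in control (SD, n = 3 each), which is 29.7% of the control mean. The log2 change was −1.75 in the authors' deposited table (adjusted p = 1.06e-47) and −1.75 by limma (SE 0.10, 95% interval −1.95 to −1.54, adjusted p = 4.04e-10). A lower log2 change was listed for 2327 (13.4%) of all entries of the authors' deposited table. These include entries with few reads or with 0 reads in a group, and the share among genes of a similar level was not counted.

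ORAI2, a subunit reported in mouse T cells to damp ORAI1 currents, fell by far less. Libraries A, B and C labelled STIM1 knockout had 689, 736 and 647 normalized reads, against 770, 773 and 781 in control libraries A, B and C. The groups did not overlap, but library B labelled STIM1 knockout came near the control libraries. The means were 690 ± 44.4 in the libraries labelled STIM1 knockout and 775 ± 5.53 in control (SD, n = 3 each), a ratio of 0.891. The authors' deposited table gave a log2 change of −0.17 (adjusted p = 0.0468), and limma −0.17 (95% interval −0.29 to −0.05, adjusted p = 0.0159). The authors' call was lost at a threshold of 0.01. The limma call was lost without library C labelled STIM1 knockout (log2 change −0.12, adjusted p = 0.0811, range over its alternatives 0.00571 to 0.0811). The locus on chromosome 7 (102433575 to 102456825) overlaps ALKBH4 on the opposite strand, which averaged 215 normalized reads in the libraries labelled STIM1 knockout and 152 in control, and whether counting used the strand is not given in the sources used here.

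ORAI1, the subunit of the classical calcium release-activated channel, was the least abundant ORAI transcript in reads and was not called. Its reads fell almost wholly on an entry for an alternate locus, with 96, 80 and 60 reads in libraries A, B and C labelled STIM1 knockout and 96, 93 and 88 in control libraries A, B and C. The entry on chromosome 12 (121626550 to 121642040) had 1 read in each group. Summed over both entries, there were 91.5, 79.1 and 71.3 normalized reads in libraries A, B and C labelled STIM1 knockout, against 85.4, 89.7 and 91.2 in control libraries A, B and C. Library A labelled STIM1 knockout was the highest of all 6, so the groups overlapped. The means were 80.6 ± 10.2 in the libraries labelled STIM1 knockout and 88.8 ± 2.997 in control (SD, n = 3 each), with a limma log2 difference of −0.14 (95% interval −0.47 to 0.18, adjusted p = 0.417). ORAI1 is uncertain, since the table lists it at 2 loci, though the alternate-locus entry alone gave the same log2 difference of −0.14.

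**Figure D1:**
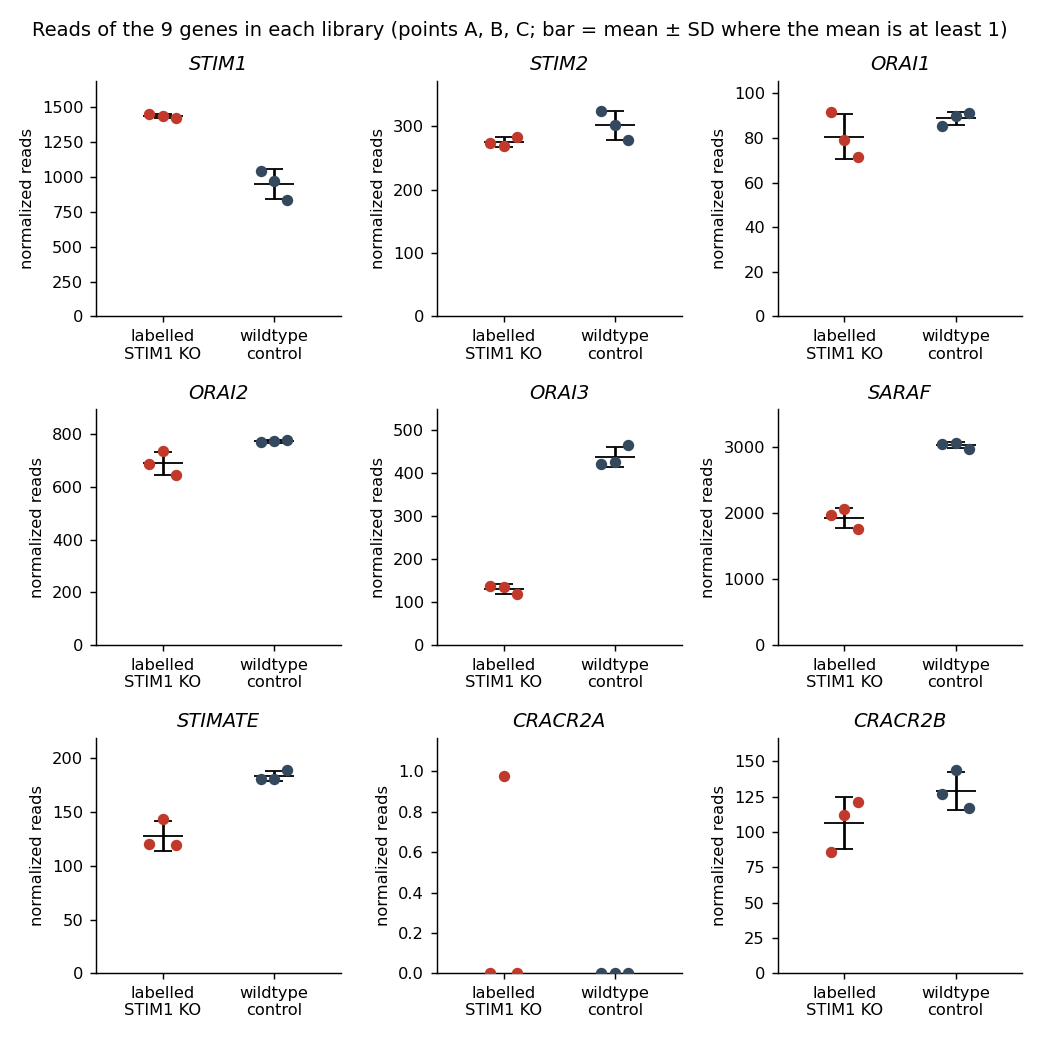
Normalized reads of each of the 9 genes (vertical axis, from 0, a scale of its own per gene) in the 3 libraries labelled STIM1 knockout (red) and the 3 control libraries (dark blue), with points for libraries A, B and C from left to right and bars for mean ± SD where the mean is at least 1. The groups are apart for STIM1 (higher in the libraries labelled STIM1 knockout) and for ORAI2, ORAI3, SARAF and STIMATE (lower there), and they overlap for STIM2, ORAI1 and CRACR2B.

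SARAF, the inhibitor of STIM1-driven entry, was the most abundant of the 9 transcripts in both groups and fell. The gene lies on chromosome 8 (30063003 to 30083208, minus strand). Libraries A, B and C labelled STIM1 knockout had 1965, 2050 and 1748 normalized reads, against 3032, 3062 and 2970 in control libraries A, B and C. No library labelled STIM1 knockout reached the lowest control library. SARAF averaged 1921 ± 156 in the libraries labelled STIM1 knockout and 3021 ± 46.5 in control (SD, n = 3 each), a ratio of 0.636. The log2 change was −0.65 in the authors' deposited table (adjusted p = 2.10e-30) and −0.66 by limma (SE 0.05, 95% interval −0.76 to −0.55, adjusted p = 1.32e-08).

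STIMATE, the junction protein of the endoplasmic reticulum that favours STIM1 activation, fell as well. It lies on chromosome 3 (52836733 to 52897548, minus strand). Libraries A, B and C labelled STIM1 knockout had 120, 144 and 119 normalized reads, against 181, 180 and 189 in control libraries A, B and C. The groups were apart, with library B labelled STIM1 knockout the closest to control. STIMATE averaged 128 ± 13.9 in the libraries labelled STIM1 knockout and 183 ± 4.76 in control (SD, n = 3 each), a ratio of 0.696. The authors' deposited table gave a log2 change of −0.52 (adjusted p = 0.00142), and limma −0.52 (SE 0.12, 95% interval −0.77 to −0.27, adjusted p = 0.000986). The annotation places a readthrough gene, TMEM110-MUSTN1, on the same strand over this locus. It was not listed, so its reads cannot be told apart from those of STIMATE.

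The CRACR2 genes did not pass. CRACR2B, on chromosome 11 (825558 to 831991), had 85.8, 112 and 121 normalized reads in libraries A, B and C labelled STIM1 knockout, against 127, 144 and 117 in control libraries A, B and C. The means were 106 ± 18.5 in the libraries labelled STIM1 knockout and 129 ± 13.4 in control (SD, n = 3 each), and the groups overlapped. The limma log2 difference was −0.29 (95% interval −0.61 to 0.04, adjusted p = 0.107), while the authors' deposited table gave an adjusted p of 0.144. Without library C labelled STIM1 knockout the limma difference passed (log2 −0.39, adjusted p = 0.0451, range over its alternatives 0.0451 to 0.405). CRACR2A, on chromosome 12, had 1 read in library B labelled STIM1 knockout and 0 reads in the other 5 libraries. Both groups were under a floor of 3 reads over the group, so no fold is given. CRACR2A transcripts were not detectable above that floor in either group.

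**Figure D2:**
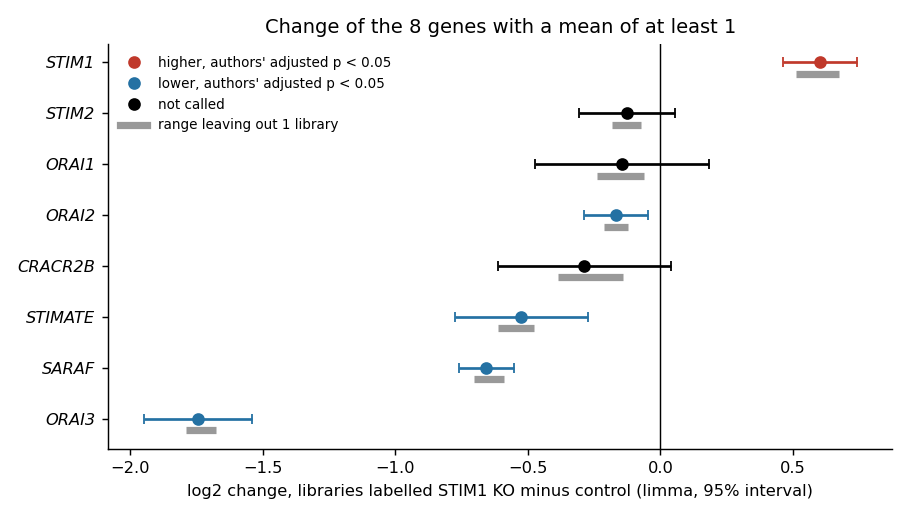
Limma log2 change, libraries labelled STIM1 knockout minus control (horizontal axis), with its 95% interval, for the 8 genes with a mean of at least 1 (red: higher, blue: lower, black: not called in the authors' deposited table), and grey bars for the range of log2 changes when 1 library was left out. ORAI3 at −1.75 lies apart from the other 7, and the intervals of STIM2, ORAI1 and CRACR2B include 0.

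Between genes, levels were compared per kb, using the gene length in the deposited table, since longer transcripts give more reads. For 3 genes that length exceeds the longest transcript of the GENCODE annotation, which lowers their values per kb. These are STIM1 (5934 against 4356 bases), SARAF (3293 against 2154) and CRACR2B (4536 against 2440). In the libraries labelled STIM1 knockout the order was SARAF (583 ± 47.3 normalized reads per kb), STIM1 (242 ± 2.71), ORAI2 (64.1 ± 4.12), ORAI3 (58.9 ± 4.89), STIM2 (54.0 ± 1.43), ORAI1 (53.8 ± 6.78), STIMATE (26.9 ± 2.94) and CRACR2B (23.5 ± 4.07). The values of the 4 genes from ORAI2 to ORAI1 overlapped each other's neighbours over the libraries, as did those of STIMATE and CRACR2B. In control the order was SARAF (918 ± 14.1 normalized reads per kb), ORAI3 (198 ± 10.8), STIM1 (160 ± 18.0), ORAI2 (71.9 ± 0.513), ORAI1 (59.2 ± 1.999), STIM2 (59.1 ± 4.46), STIMATE (38.6 ± 1.00) and CRACR2B (28.5 ± 2.96), and there only the neighbours ORAI1 and STIM2 overlapped. CRACR2A was last in both groups. ORAI3 was the fourth of the 9 in the libraries labelled STIM1 knockout and the second in control. The place of ORAI3 above STIM1 in control depends on the length used: with the longest transcript of the GENCODE annotation, control means were 198 per kb for ORAI3 and 218 per kb for STIM1. That length also puts CRACR2B above both ORAI1 and STIMATE, at 43.6 per kb in the libraries labelled STIM1 knockout and 53.0 per kb in control.

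The make-up of the ORAI family differed between the groups. ORAI3 supplied 33.4%, 33.4% and 33.2% of the summed ORAI reads per kb in libraries A, B and C labelled STIM1 knockout, against 59.8%, 59.5% and 61.2% in control libraries A, B and C. The ORAI3 share averaged 33.3% ± 0.138 in the libraries labelled STIM1 knockout and 60.2% ± 0.936 in control (SD, n = 3 each). ORAI2 made up 36.3% ± 1.94 of the sum in the libraries labelled STIM1 knockout and 21.8% ± 0.688 in control. ORAI1 made up 30.4% ± 1.88 in the libraries labelled STIM1 knockout and 18.0% ± 0.379 in control. By the lengths in the deposited table the 3 subunits thus had near-equal shares in the libraries labelled STIM1 knockout, and ORAI3 held the majority in control. These shares, the ORAI sum and ratios to that sum carry the uncertainty of ORAI1, which is listed at 2 loci. With the mean transcript length of the annotation, ORAI3 held 28.6% in the libraries labelled STIM1 knockout and 54.7% in control, while ORAI2 held 55.9% in the libraries labelled STIM1 knockout and 35.6% in control. Sizes thus changed with the length used, and directions did not. The summed ORAI level was 177 ± 14.0 normalized reads per kb in the libraries labelled STIM1 knockout and 330 ± 12.9 in control, and the libraries of the groups did not overlap.

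On the sensor side the sum was higher. The summed STIM level was 296 ± 2.05 normalized reads per kb in the libraries labelled STIM1 knockout and 219 ± 22.4 in control (SD, n = 3 each). STIM1 made up 82.0%, 82.1% and 81.2% of it in libraries A, B and C labelled STIM1 knockout, against 73.5%, 73.4% and 72.1% in control libraries A, B and C. The ratio of the STIM sum to the ORAI sum was 1.59, 1.62 and 1.83 in libraries A, B and C labelled STIM1 knockout, against 0.7505, 0.686 and 0.568 in control libraries A, B and C. The groups did not overlap, and they stayed apart with the transcript lengths of the annotation, though at other values. With the mean transcript length of the annotation the ratio was 3.91 to 4.40 in the libraries labelled STIM1 knockout and 1.39 to 1.84 in control. Which side of 1 a control library lies on therefore depends on the length used. The ratio of SARAF to STIM1, the inhibitor to its target, was 2.41 ± 0.178 in the libraries labelled STIM1 knockout and 5.77 ± 0.597 in control, again without overlap. These ratios combine the changes of single genes given above and are no further test of them. With 3 libraries against 3, an exact permutation test of a single value cannot give a two-sided p below 0.1.

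**Figure D3:**
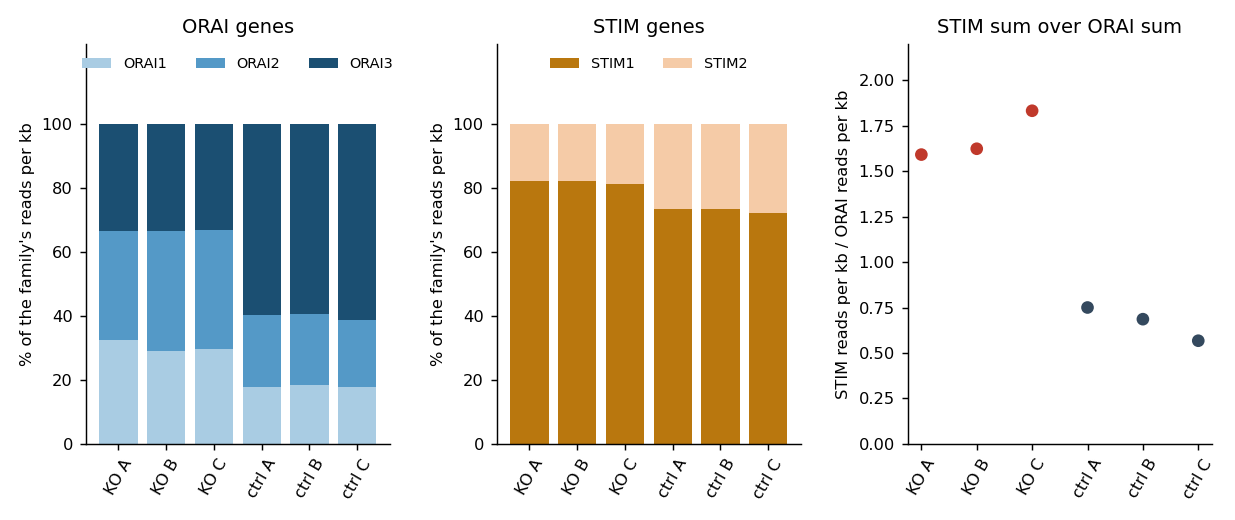
Shares of ORAI1, ORAI2 and ORAI3 in the summed ORAI reads per kb (left, stacked to 100%), shares of STIM1 and STIM2 in the summed STIM reads per kb (middle), and the ratio of the STIM sum to the ORAI sum (right), each for libraries A, B and C labelled STIM1 knockout (KO) and then control libraries A, B and C (ctrl). ORAI3 takes 33.2% to 33.4% in the libraries labelled STIM1 knockout and 59.5% to 61.2% in control, and the ratio is 1.59 to 1.83 in the libraries labelled STIM1 knockout and 0.568 to 0.7505 in control.

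Position on the chromosome was not used to choose the genes, and it was read from the start positions in the deposited table. Of the 10 nearest listed genes of ORAI3, 5 on each side, 9 fell and none rose. Over all entries, 28.8% fell and 25.7% rose. The median log2 change of the neighbours was −0.68 in the authors' deposited table (10 genes each side: −0.77). The neighbour that did not pass was BCL7C (log2 −0.34, adjusted p = 0.120). FBXL19, an F-box gene that ends 0.285 kb before ORAI3, averaged 491 normalized reads in the libraries labelled STIM1 knockout and 868 in control (authors' log2 −0.82). SETD1A, a histone methyltransferase gene 1.68 kb beyond ORAI3, averaged 1231 in the libraries labelled STIM1 knockout and 1852 in control (authors' log2 −0.59). ORAI3 itself, at −1.75, was lower than all of these but CTF1 (−6.15), and the 10 genes lie within 313 kb. Whether the change of ORAI3 belongs to that of its surroundings was not tested.

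The neighbours of STIM1 leaned upwards. Of 10, 6 rose and none fell, against 25.7% and 28.8% of all entries. Their median log2 change was 0.47 in the authors' deposited table (10 genes each side: 0.83). Medians of neighbours leave out genes with 0 reads in a group, here 2 of the 10. RHOG, a small GTPase gene 13.6 kb away on one side, averaged 738 normalized reads in the libraries labelled STIM1 knockout and 505 in control (authors' log2 0.55). RRM1, the large subunit of ribonucleotide reductase 1.48 kb away on the other side, averaged 4615 in the libraries labelled STIM1 knockout and 4535 in control and did not pass (authors' log2 0.02, adjusted p = 0.707). The other 3 that did not pass were olfactory receptor genes, each with fewer than 3 reads as a group mean.

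SARAF had mixed neighbours, of which 3 rose and 5 fell of 10, against 25.7% and 28.8% of all entries. Their median log2 change was −0.28 in the authors' deposited table (10 genes each side: −0.03). The 10 genes span 2051 kb. DUSP4, a MAP kinase phosphatase gene, is the nearest on one side, though 712 kb away. DUSP4 averaged 1189 normalized reads in the libraries labelled STIM1 knockout and 787 in control (authors' log2 0.60). LEPROTL1, a gene 12.2 kb away on the other side, averaged 420 in the libraries labelled STIM1 knockout and 594 in control (authors' log2 −0.50). Around the other 6 genes the median log2 change ranged from −0.42 (CRACR2B) to 0.28 (ORAI2), and with 10 genes each side from −0.53 (CRACR2A) to 0.20 (STIMATE), where CRACR2B had −0.18 and ORAI2 0.14. The neighbours of ORAI2, of which 4 of 10 rose and 1 fell, leaned against the direction of ORAI2 itself.

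**Figure D4:**
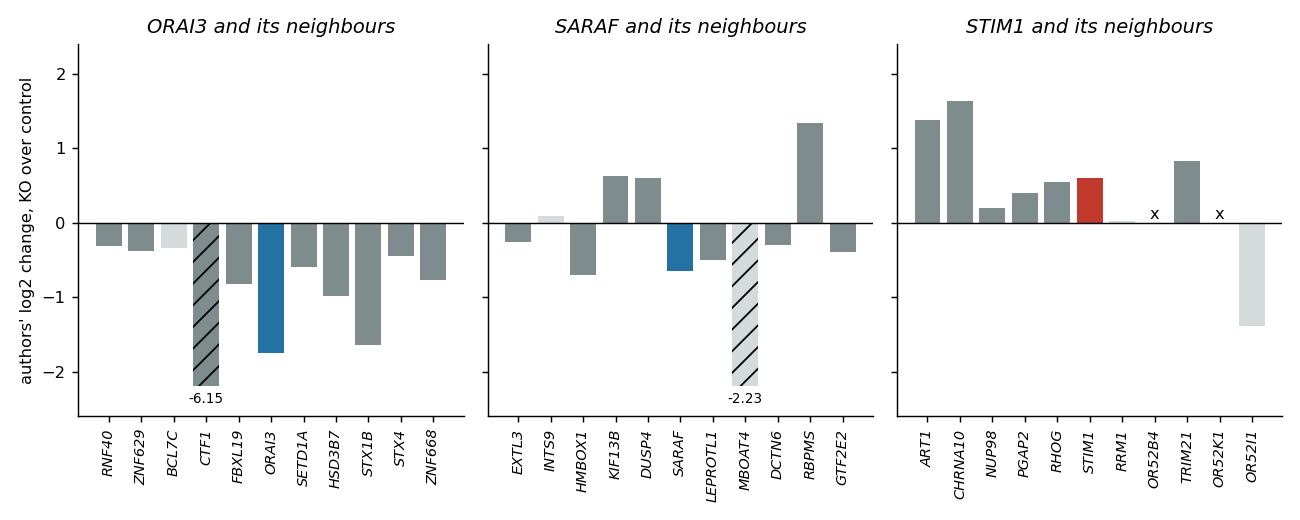
Log2 change in the authors' deposited table, libraries labelled STIM1 knockout over control (vertical axis), of ORAI3, SARAF and STIM1 (coloured bars) and of the 5 listed genes on each side of each, in chromosomal order and not to distance (dark grey: adjusted p under 0.05, light grey: not passed, hatched: bar cut short with its value written, x: a group at 0 reads and no value). All 10 neighbours of ORAI3 lie below 0, those of STIM1 with a called change lie above 0, and those of SARAF lie on both sides.

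The genes whose 6 library values most resembled each changed gene were found among 10175 gene names with a mean of at least 100, by Euclidean distance between log2 values centred on each gene. For ORAI3 they were CD320, a transcobalamin receptor (distance 0.125), NDUFA7, a complex I subunit (0.153), and LANCL1 (0.154). CD320 averaged 408 ± 43.1 normalized reads in the libraries labelled STIM1 knockout and 1330 ± 56.9 in control (SD, n = 3 each). For SARAF they were FAM241A (0.0491), TBC1D2B (0.0815) and SNX16 (0.0841), and for STIMATE they were EYA3 (0.0887), ASB1 (0.0957) and UTP11 (0.107). CPEB4 (0.0919), SGMS2, a sphingomyelin synthase (0.101), and LIMD1 (0.119) lay nearest to STIM1. CPEB4 had 833, 839 and 867 normalized reads in libraries A, B and C labelled STIM1 knockout, against 593, 568 and 504 in control libraries A, B and C. Like STIM1 it was lowest in control library C, a likeness that the choice by these same values favours. NABP2 (0.0437), LAP3 (0.0493) and NRBF2 (0.0535) lay nearest to ORAI2. These distances describe 6 libraries only.

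Other genes of the pathway were taken from 6 lists that hold 57 genes, of which 55 were listed. Of these 14 rose, 17 fell and 24 did not pass, so 56.4% were called, a share near the 54.5% of the whole table, and their median limma log2 change was 0.01. Calcium release channels of the store gave 3 that rose and 1 that fell of 6. ITPR1, an inositol trisphosphate receptor, averaged 9256 ± 171 normalized reads in the libraries labelled STIM1 knockout and 3150 ± 74.0 in control (SD, n = 3 each; limma log2 change 1.55, SE 0.03). RYR1, a ryanodine receptor best known from muscle, averaged 380 ± 37.4 in the libraries labelled STIM1 knockout and 110.0 ± 20.9 in control (log2 1.79, SE 0.13). ITPR2 rose and RYR3 fell, while ITPR3, the most abundant in reads, averaged 12282 ± 218 in the libraries labelled STIM1 knockout and 12082 ± 111 in control.

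Of the 3 SERCA pumps, which refill the store, 2 fell, while 28.8% of all entries did. ATP2A1 averaged 21.8 ± 6.52 normalized reads in the libraries labelled STIM1 knockout and 47.2 ± 11.9 in control (SD, n = 3 each; limma log2 −1.10, SE 0.28). ATP2A3 averaged 303 ± 42.9 in the libraries labelled STIM1 knockout and 436 ± 19.3 in control (log2 −0.53, SE 0.09). ATP2A2, by far the most abundant pump, did not pass, at 11873 ± 193 in the libraries labelled STIM1 knockout and 11782 ± 236 in control. Of 5 listed TRPC channel genes only TRPC1 reached a mean of 1 over both groups, and it fell to 303 ± 22.6 in the libraries labelled STIM1 knockout, against 488 ± 16.9 in control (log2 −0.69, SE 0.08).

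Proteins that hold the endoplasmic reticulum to the plasma membrane split, with 5 of 15 higher, 6 lower and 4 not passed. The share called was 73.3%, against 54.5% of the whole table. VAPA, a tether of the endoplasmic reticulum, fell to 2690 ± 87.4 normalized reads in the libraries labelled STIM1 knockout, against 5861 ± 54.9 in control (SD, n = 3 each; limma log2 −1.12, SE 0.03), while its paralog VAPB rose (log2 0.56). JPH3, a junctophilin known from neurons, averaged 694 ± 56.2 in the libraries labelled STIM1 knockout and 258 ± 5.41 in control (log2 1.42, SE 0.07). Among 14 listed genes whose proteins are reported to bind or adjust STIM or ORAI proteins, 1 rose, 6 fell and 7 did not pass. Here the share called was 50%. ASPH, whose locus encodes junctate as well as an aspartyl hydroxylase, averaged 2556 ± 67.5 in the libraries labelled STIM1 knockout and 15239 ± 87.8 in control (log2 −2.58, SE 0.03), and the gene total does not separate these products. CAV1, the coat protein of caveolae, averaged 803 ± 13.4 in the libraries labelled STIM1 knockout and 1921 ± 136 in control (log2 −1.26, SE 0.05).

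Downstream of calcium entry, the calcineurin and NFAT list gave 5 of 12 higher, 1 lower and 6 not passed. The share called was 50%, not above the 54.5% of the whole table. PPP3R1, the regulatory subunit of calcineurin, averaged 1836 ± 65.3 normalized reads in the libraries labelled STIM1 knockout and 1241 ± 18.0 in control (SD, n = 3 each; limma log2 0.56, SE 0.04). PPP3CA, a catalytic subunit, fell to 789 ± 40.0 in the libraries labelled STIM1 knockout, against 1179 ± 69.4 in control (log2 −0.58, SE 0.06). The other catalytic subunits, PPP3CB (log2 0.23) and PPP3CC (log2 0.69), rose. NFATC1 (log2 0.75) and RCAN1 (log2 0.31), a calcineurin inhibitor whose gene is a known NFAT target, also rose.

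**Figure D5:**
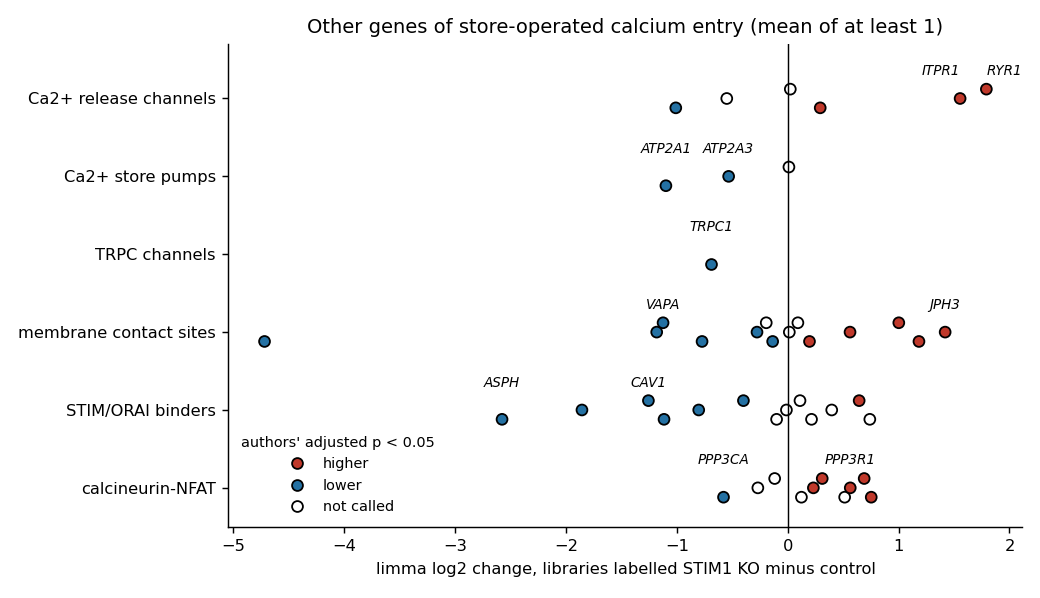
Limma log2 change, libraries labelled STIM1 knockout minus control (horizontal axis), of the genes with a mean of at least 1 in 6 lists of the calcium entry pathway (rows; points are spread vertically for legibility), coloured by the call of the authors' deposited table, with the named genes of each list (2, but 1 for TRPC channels) written beside their points. Calls lie on both sides of 0 in the release channel, contact site, binder and calcineurin lists, and on the low side for pumps and TRPC1.

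Markers of other cell types moved with the groups, and their part in the changes of the 9 genes was not tested. The summed level of 6 fibroblast markers, all listed, was 3121 to 3671 normalized reads in the libraries labelled STIM1 knockout and 1954 to 2145 in control. COL1A1 made up most of it and was the 1 of the 6 that rose, while 2 fell (DCN and PDGFRB). COL1A2 did not pass and varied within groups, at 77.7 ± 113 in the libraries labelled STIM1 knockout and 117 ± 73.8 in control (SD, n = 3 each). The 5 endothelial markers summed to 19.5 to 22.9 in the libraries labelled STIM1 knockout and 127 to 165 in control, and PECAM1 averaged 3.01 in the libraries labelled STIM1 knockout and 123 in control. For 5 listed of 6 blood and immune markers the sums were 30.3 to 42.9 in the libraries labelled STIM1 knockout and 68.5 to 94.3 in control, with PTPRC at 0 over the libraries labelled STIM1 knockout and 2 reads over control. The 5 kidney markers summed to 85.0 to 97.5 in the libraries labelled STIM1 knockout and 148 to 158 in control, with PAX2 at 1 read in each group. Depth was of the same order in both groups, while the number of gene names with a read was 14345 to 14544 in the libraries labelled STIM1 knockout and 15015 to 15126 in control.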

How the data were processed

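Libraries were made from 1 µg of total RNA with a SMARTER mRNA-Seq kit after column extraction, per the labels' protocols. Groups come from the sample titles. Per the file headers, the deposited table gives the signal of each gene as the mean, over a group, of read counts that the authors normalized by size factors. The authors also deposited the ratio of the means, its log2 value, and a p-value and adjusted p-value, in columns of the DESeq format. Neither aligner nor counting tool is given in the sources used here. The submitters' processing notes name GRCm38 and mm10, which are mouse builds, while the chromosome accessions of the table are those of human GRCh38, so coordinates are in GRCh38.

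A mean of 3 whole reads, each divided by a size factor, leaves a pattern in its digits. After the data were seen, this pattern was searched for the reads of each library. Sets were found for all 17381 entries, and recomputed means differed from the deposited ones by at most 7.86e-10. Size factors recomputed from the reads differed by at most 1.2e-13%. Several sets matched for 18 means of the group labelled STIM1 knockout and 7 of control, and the set with the nearest libraries was taken. For means of 60 or more, the search began with sets whose libraries all lay within 50% of the mean, and both choices favour a small SD. The libraries carry no sample number.

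Limma 3.58.1 (R 4.3.3), with moderated variances that follow the mean and Benjamini-Hochberg adjusted p-values over all names tested, was run on log2(normalized reads + 1) of names with a mean of at least 1, with entries that share a name summed (591 names). Fold changes are therefore on that scale. The procedure was tested on simulated data. Limma called 61 of 67 genes with a simulated log2 change of size 0.5 in the right direction, 64 of 66 at 1 and 67 of 67 at 2. Of 14588 unchanged genes it called 5. A far smaller share of genes was changed there than the 69.9% called here, so the simulation gives no error rate for these data. Length comes from the table, and overlaps and other lengths come from GENCODE v29. The plan assumed counts for some alternatives. The deposited unit is a normalized mean, so limma was kept and its voom weights on the recovered reads were an alternative.

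The 9 genes, the lists and the rules were chosen with earlier results of these data known. Named besides the 9 genes were up to 2 genes of each list, those of smallest deposited p with a mean of at least 5 (1 for TRPC channels), the 3 most alike names of each changed gene, and the nearest neighbours of ORAI3, SARAF and STIM1. BCL7C, CTF1, VAPB, ITPR2, ITPR3, RYR3, ATP2A2, PPP3CB, PPP3CC, NFATC1, RCAN1, ALKBH4 and the marker genes HNF4A, TF, SERPINA1, COL1A1, COL1A2, DCN, PDGFRB, PECAM1, PTPRC and PAX2 were named after their values were seen. Alternatives covered the threshold, the test, scaling, pseudocount, low-value filter, entry used, transcript length, number of neighbours and each library left out.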

Additional observations from a re-analysis of the deposited data

How the results depend on the processing

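The directions of the 8 tested genes held under all 104 alternatives, and 102 also kept their side of the threshold. Leaving out 1 library at a time gave log2 changes of −0.21 to −0.12 for ORAI2 and −0.39 to −0.14 for CRACR2B. Among the lists, fallen release channels numbered 1, against 0 at a threshold of 0.01 and 2 by limma; risen binders numbered 1 (2 by limma) and fallen calcineurin genes 1 (2 by limma). Shares per kb moved with the transcript length. With the longest transcript, libraries labelled STIM1 knockout had 23.5% ORAI1, 39.9% ORAI2, 36.7% ORAI3 and 86.1% STIM1, and control had 13.3% ORAI1, 23.03% ORAI2, 63.6% ORAI3 and 78.9% STIM1. With the mean transcript length, libraries labelled STIM1 knockout had 15.4% ORAI1, 55.9% ORAI2, 28.6% ORAI3 and 89.7% STIM1, and control had 9.67% ORAI1, 35.6% ORAI2, 54.7% ORAI3 and 84.0% STIM1. With the main-chromosome entry of ORAI1 only, libraries labelled STIM1 knockout had 0.168% ORAI1, 52.0% ORAI2 and 47.8% ORAI3, and control had 0.0744% ORAI1, 26.6% ORAI2 and 73.3% ORAI3. That entry could not be fitted by limma, since its mean is under 1. Using only the alternate-locus entry was added after seeing the data and kept the result. edgeR and DESeq2 on the recovered reads were planned and not run; voom weights on these reads were. No paired analysis was possible because the recovered libraries carry no replicate number. Depth limits CRACR2A, with 1 read in all.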
